A study of Homo sapiens with 2 samples.

Results

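The genes described here are 47 autosomal genes that work in the germ line or in meiosis, chosen by their known function, with a rule that uses no measured value. CpG positions were assigned to a gene through the deposited annotation, either as its promoter or, when annotated to the gene and outside its own promoter, as its gene body. Promoters of 45 of the 47 genes and gene bodies of 43 held at least 5 CpGs read 10 times or more in each library, against 22658 autosomal promoters and 23487 autosomal gene bodies in all. The promoter of GPAT2 had no measured position, and that of PIWIL3 had 1. TPTE, RAD21L1, DMC1 and POU5F1 had fewer than 5 measured CpGs in the gene body.

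DNA methylation was measured by methyl-capture bisulfite sequencing in SH-SY5Y, an established human neuroblastoma line. One library came from cells exposed to DMSO, the solvent control, and 1 from cells exposed to Mdivi-1, a small molecule used as an inhibitor of mitochondrial fission. Dose and length of exposure are not given in the sources used here. No replicate exists in either group, so every difference compares 2 libraries, a difference between cultures or library preparations cannot be told apart from an effect of the compound, and no test over genes was made. In a bulk sample, a partly methylated CpG in every cell and a fully methylated CpG in some cells cannot be told apart.

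Over the 2523728 CpGs of this depth, coverage averaged 39.7 reads in the control and 49.1 in the treated library. Their mean level was 42.6% and 43.1%, so the treated library was 0.46 percentage points higher. The labelled neuroblastoma identity was looked at through 8 promoters of sympathetic neuroblast genes. In the control, 5 of them lay under 20%, GATA3 lowest at 0.802%, while TH lay at 53.7%. Expression was not measured in these files, so the promoter levels alone do not show the cell type.

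Germline genes are a textbook case of genes that DNA methylation keeps silent in the body. Many of them have CpG-rich promoters, which in other genes stay free of methylation. In the early embryo, repressors such as E2F6 and the MGA and MAX pair bind these promoters, histone methyltransferases and DNA methyltransferases follow, and the promoters stay methylated in somatic tissues. Germ cells erase these marks when they form, and the genes then switch on to silence transposons through piRNAs, pair homologous chromosomes and recombine them. Tumour cells can lose methylation at such promoters, and proteins of this group are then known as cancer-testis antigens.

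Upstream sequences are shown for the promoters at both ends of the range of methylation, because the letters show how many methylatable sites each one offers. Each line holds the 250 bases before the transcription start from RefSeq on GRCh38.p14, 5′ to 3′ on the gene's strand, with every CpG in capitals. The methylation files use hg19, so letters were not matched to single measured positions. The first 3 are from the most methylated promoters whose sequence was in the table: SYCP3 (chr12:101739463-101739712, minus strand), STK31 (chr7:23709969-23710218, plus strand) and TDRD9 (chr14:103928206-103928455, plus strand).
SYCP3: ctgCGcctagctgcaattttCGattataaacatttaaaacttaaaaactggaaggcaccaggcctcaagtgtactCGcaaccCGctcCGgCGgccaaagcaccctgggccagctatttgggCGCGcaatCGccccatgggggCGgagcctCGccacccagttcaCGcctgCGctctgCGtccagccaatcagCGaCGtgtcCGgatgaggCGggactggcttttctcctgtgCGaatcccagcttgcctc
STK31: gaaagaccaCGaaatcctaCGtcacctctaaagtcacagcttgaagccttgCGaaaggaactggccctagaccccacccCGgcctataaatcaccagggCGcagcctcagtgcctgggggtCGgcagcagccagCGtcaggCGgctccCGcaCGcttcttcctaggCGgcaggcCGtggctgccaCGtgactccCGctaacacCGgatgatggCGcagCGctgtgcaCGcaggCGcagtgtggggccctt
TDRD9: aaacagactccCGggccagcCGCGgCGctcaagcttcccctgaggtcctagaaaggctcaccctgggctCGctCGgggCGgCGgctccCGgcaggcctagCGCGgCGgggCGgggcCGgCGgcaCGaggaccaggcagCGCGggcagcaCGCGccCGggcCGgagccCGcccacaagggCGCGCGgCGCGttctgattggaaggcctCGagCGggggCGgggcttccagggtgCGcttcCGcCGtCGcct
These stretches hold 19, 19 and 35 CpGs. The control levels of the 3 promoters were 95.9% for SYCP3, 94.7% for STK31 and 93.1% for TDRD9.

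The next 3 are from the least methylated promoters: SYCE2 (chr19:12919294-12919543, minus strand), RAD21L1 (chr20:1225794-1226043, plus strand) and SYCE3 (chr22:50562920-50563169, minus strand).
SYCE2: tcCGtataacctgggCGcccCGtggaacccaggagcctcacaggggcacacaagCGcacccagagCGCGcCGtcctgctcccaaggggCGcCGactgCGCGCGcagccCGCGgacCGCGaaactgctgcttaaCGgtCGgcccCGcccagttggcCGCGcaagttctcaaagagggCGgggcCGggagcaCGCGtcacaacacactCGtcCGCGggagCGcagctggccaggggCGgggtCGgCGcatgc
RAD21L1: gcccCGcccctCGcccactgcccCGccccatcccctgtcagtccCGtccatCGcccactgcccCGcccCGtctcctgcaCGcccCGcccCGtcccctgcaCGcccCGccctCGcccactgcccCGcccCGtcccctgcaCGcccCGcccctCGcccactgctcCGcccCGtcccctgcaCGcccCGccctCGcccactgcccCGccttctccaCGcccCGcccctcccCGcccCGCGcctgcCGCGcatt
SYCE3: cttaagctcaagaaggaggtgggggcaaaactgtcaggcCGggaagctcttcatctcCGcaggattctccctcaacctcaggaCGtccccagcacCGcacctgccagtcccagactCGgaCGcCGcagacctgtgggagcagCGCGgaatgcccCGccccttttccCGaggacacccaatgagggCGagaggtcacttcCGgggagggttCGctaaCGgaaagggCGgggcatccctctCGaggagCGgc
They hold 32, 31 and 18 CpGs. Control levels of the measured promoter CpGs were 1.61% for SYCE2, 6.09% for RAD21L1 and 9.86% for SYCE3. Genes at both ends of the range therefore had CpG-rich stretches before the start, but the methylation of the printed letters themselves was not shown. In RAD21L1 only 15 promoter CpGs were measured, none of them in an island.

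The last pair is from REC8 (chr14:24171830-24172079, plus strand) and DMC1 (chr22:38570184-38570433, minus strand), whose promoters each held a nearly fully methylated side and a nearly unmethylated side in both libraries.
REC8: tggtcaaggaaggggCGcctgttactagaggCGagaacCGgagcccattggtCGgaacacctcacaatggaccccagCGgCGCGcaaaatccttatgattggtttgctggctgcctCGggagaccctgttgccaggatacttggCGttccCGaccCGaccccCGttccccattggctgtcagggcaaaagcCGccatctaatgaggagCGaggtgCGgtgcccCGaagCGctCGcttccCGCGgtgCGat
DMC1: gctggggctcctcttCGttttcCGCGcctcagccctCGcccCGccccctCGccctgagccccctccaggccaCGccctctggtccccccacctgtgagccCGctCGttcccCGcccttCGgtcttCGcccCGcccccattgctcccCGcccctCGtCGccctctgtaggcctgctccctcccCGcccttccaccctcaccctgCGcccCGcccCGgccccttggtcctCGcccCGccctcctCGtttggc
They hold 21 and 23 CpGs. In REC8 the sides lay 1201 unmeasured bases apart, more than the length of a printed stretch, so its letters cannot hold both sides. For DMC1, letters were not matched to measured positions, so whether they span the split is not known.

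RefSeq promoter sequences were found for 40 of the 47 genes, 52 starts in all. Over these starts the median number of CpGs in the 250 bases was 19.5, against 11 over 33725 autosomal starts, the median G and C content was 65.8% against 58.4%, and the median ratio of observed to expected CpGs was 0.74 against 0.559. The letters CACGTG, the E-box that MGA and MAX bind, read the same on both strands and occurred in 12 of the 52 starts (23.1%) against 6.30% of all. TCCCGC, the E2F6 site, searched on both strands, occurred in 17 (32.7%) against 23.5%, and both motifs occurred together in 4 starts (7.69%) against 1.89%. The motifs can share at most 1 letter where they meet, and a match is a description of the sequence and not a bound site. Of the stretches printed above, STK31 holds both motifs, and SYCP3, SYCE2 and REC8 hold TCCCGC. The 10 genes with CACGTG were BRDT, DAZL, MAEL, SOHLH1, STK31, SYCE1, TDRD1, TDRD12, TDRD5 and TPTE. Their promoters ranged from 40.5% to 94.7% in the control with a median of 78.6%, and none lay under 20%. Among the 29 genes with a sequence and a measured promoter but no CACGTG, the range was 1.61% to 95.9% with a median of 59.8%, and 6 lay under 20%. The 15 genes with TCCCGC ranged from 1.61% to 95.9% with a median of 71.2% and 2 under 20%, and the 24 measured genes without it from 6.09% to 93.1% with a median of 55.3% and 4 under 20%.

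Germline promoters were mostly methylated in SH-SY5Y cells. A promoter's level is the mean over its CpGs, called low under 20%, high at 80% or more and intermediate between them. The median of the 45 promoters was 62.8% in control cells and 65.0% after Mdivi-1, while the medians over all autosomal promoters were 18.4% and 18.6%. In the control, 6 of the 45 were low (13.3%) against 52.1% of all promoters, 25 were intermediate (55.6%) against 36.7%, and 14 were high (31.1%) against 11.2%. The gap was widest for promoters with at least 50% of their CpGs in a CpG island, a stretch dense in CpGs. The 22 germline promoters of this kind had a median of 71.9%, against 8.59% for 9384 promoters. The other 23 germline promoters had a median of 47.8%, against 29.5% for 13274.

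**Figure D1:**
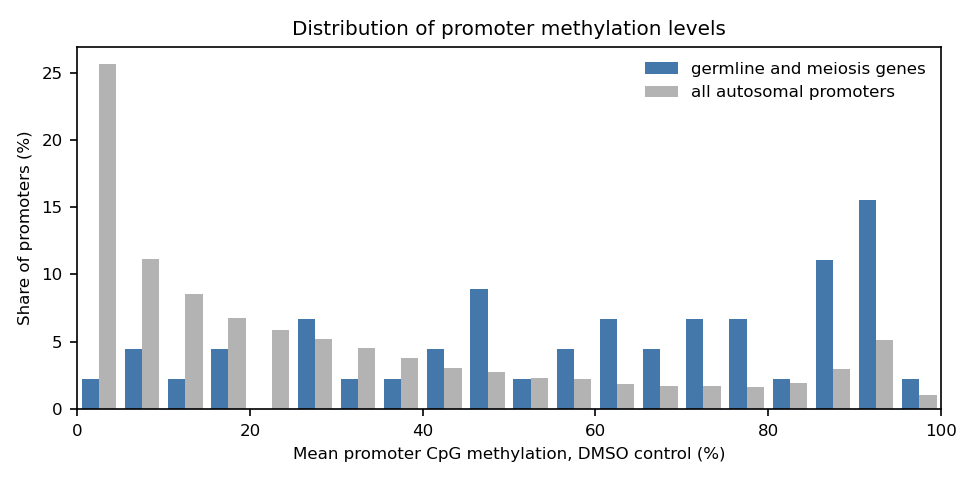
Share of promoters (vertical axis, percent) by mean promoter CpG methylation in the DMSO control (horizontal axis, percent, in steps of 5 points), for 45 germline and meiosis genes (blue) and all 22658 autosomal promoters (grey). The grey bars are tallest at the left end, while the blue bars are spread along the axis and tallest above 85%.

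Counting single CpGs gave the same order. Of 756 island CpGs in germline promoters, 39.8% were at 90% or more in the control and 12.04% were under 10%. Over 357571 island CpGs of all autosomal promoters the shares were 6.11% and 79.7%. Mean control levels in germline promoters were 68.6% in islands, 52.7% in the shores beside islands, 35.5% in the shelves beyond the shores and 47.2% outside all of these. Over all promoters the corresponding means were 13.6%, 33.4%, 35.9% and 42.8%, so germline promoters were highest in islands and the others lowest there.

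**Figure D2:**
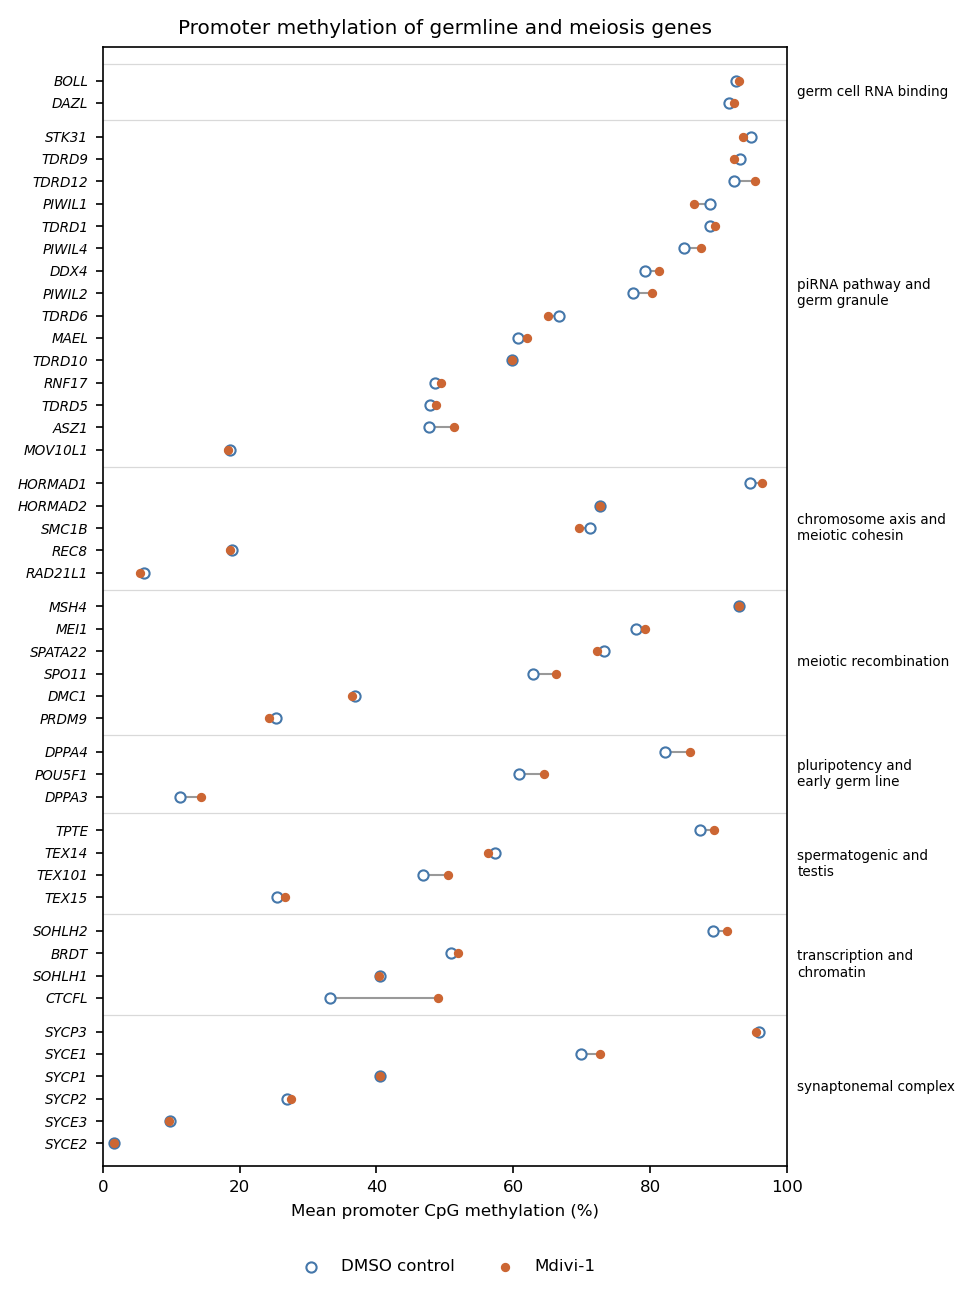
Mean promoter CpG methylation (horizontal axis, percent) of 45 germline and meiosis genes, grouped by role, in the DMSO control (open blue circles) and the Mdivi-1 library (filled orange circles), 1 library each; grey lines join the 2 values. The circles overlap or lie close for nearly all genes, and CTCFL, from 33.2% to 49.0%, has the longest line.

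The germ cell RNA-binding proteins DAZL and BOLL, which control translation of germ cell messages, both had high promoters. DAZL was at 91.6% in control cells and 92.3% after Mdivi-1 over 34 CpGs. BOLL was at 92.5% and 92.9% over 94 CpGs.

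The piRNA pathway and germ granule formed the largest group, with 15 measured promoters of 17 genes and a median of 77.5% in the control. These proteins make or carry the small RNAs that guide silencing of transposons, and 6 promoters were high, 8 intermediate and 1 low. Among the PIWI proteins, which bind piRNAs, PIWIL1 was at 88.7% in control cells and 86.4% after Mdivi-1, PIWIL2 at 77.5% and 80.3%, and PIWIL4 at 85.0% and 87.5%. The single measured CpG of PIWIL3 was at 3.85% and 9.52%. DDX4, the RNA helicase also known as VASA that marks germ cells, was at 79.3% and 81.3%.

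Tudor-domain proteins dock onto PIWI proteins, and their promoters spanned much of the range. STK31 was at 94.7% in control cells and 93.6% after Mdivi-1, TDRD9 at 93.1% and 92.3%, TDRD12 at 92.3% and 95.3%, and TDRD1 at 88.7% and 89.5%. Lower values were found for TDRD6 with 66.6% and 65.0%, TDRD10 with 59.8% and 59.7%, RNF17 with 48.6% and 49.4%, and TDRD5 with 47.8% and 48.7%. MAEL, a factor of piRNA production, was at 60.6% and 62.0%, and ASZ1, a partner in the same process at mitochondria, at 47.6% and 51.3%. MOV10L1, the helicase that feeds piRNA precursors into processing, had the only low promoter of the group, at 18.6% and 18.4% over 53 CpGs from a pair of starts that differed widely, described below.

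The synaptonemal complex, the protein zipper between paired chromosomes, had the widest range. SYCP3, a protein of its lateral elements, was the most methylated promoter of all 45 genes, at 95.9% ± 0.71 in control cells and 95.4% after Mdivi-1 over 24 CpGs (± is the binomial counting error over independent CpGs, here and for the next values). SYCE2, of the central element, was the least methylated, at 1.61% ± 0.33 and 1.72% over 34 CpGs. SYCE3, also of the central element, was at 9.86% ± 0.51 and 9.74% over 43 CpGs. SYCE1, the third central element protein here, was at 69.9% and 72.7% over 109 CpGs. SYCP2, the partner of SYCP3, was at 26.9% and 27.6%, and SYCP1, which spans the zipper, at 40.5% in both libraries. Proteins of one structure therefore had promoters from low to high, with a group median of 33.7%.

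Axis and cohesin genes also differed among themselves. HORMAD1, which marks unpaired chromosome axes, was at 94.6% ± 1.41 in control cells and 96.4% after Mdivi-1, and its relative HORMAD2 at 72.7% in both. SMC1B, a meiotic cohesin subunit, was at 71.2% and 69.6%. The meiotic kleisins, which close the cohesin ring, were low: REC8 was at 18.9% and 18.6%, and RAD21L1 at 6.09% ± 1.01 and 5.40% over 15 CpGs.

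Among the recombination genes, MSH4, which stabilises crossover intermediates, was at 92.9% in both libraries over 12 CpGs. MEI1, needed for double-strand breaks, was at 77.9% in control cells and 79.2% after Mdivi-1, and SPATA22, which binds single-stranded DNA with MEIOB, at 73.3% and 72.3%. SPO11, the enzyme that cuts the DNA, was at 62.8% and 66.3%. DMC1, the meiotic strand exchange protein, was at 36.9% and 36.5%. PRDM9, the histone methyltransferase that places the breaks, was at 25.4% and 24.3%.

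The transcription and chromatin group was intermediate apart from SOHLH2. This regulator of early germ cell differentiation was at 89.1% in control cells and 91.2% after Mdivi-1, and its partner SOHLH1 at 40.5% and 40.3%. BRDT, the testis bromodomain protein, was at 50.9% and 52.0%, and CTCFL, the germ cell relative of CTCF, at 33.2% and 49.0%. Of the pluripotency genes, DPPA4 was at 82.1% and 85.9%, and POU5F1 (OCT4) at 60.9% and 64.6%. DPPA3 (STELLA), which protects DNA methylation in the zygote, was at 11.2% ± 3.37 and 14.4% over 6 CpGs. In the spermatogenic group, TPTE, a phosphatase-like protein of the testis, was at 87.2% and 89.3%. TEX14, of the bridges between germ cells, was at 57.3% and 56.3%, TEX101, a germ cell surface protein, at 46.8% and 50.4%, and TEX15, a germ cell factor of transposon silencing, at 25.5% and 26.6%.

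Some neighbours in this order did not differ beyond counting error, and others did. STK31 at 94.7% ± 1.07 and HORMAD1 at 94.6% ± 1.41 overlapped, as did TDRD9 at 93.1% ± 0.63, MSH4 at 92.9% ± 1.02 and BOLL at 92.5% ± 0.54. At the other end, SYCE2 stood below RAD21L1 and RAD21L1 below SYCE3 by more than their errors, whereas SYCE3 and DPPA3 overlapped. These errors take CpGs as independent, and CpGs that share reads would have larger ones. The level of SYCE3 also combined 38 CpGs at 2.20% with 5 at 68.0%. MOV10L1 at 18.6% ± 0.62 lay just inside the low class, as did REC8 at 18.9% ± 0.39, and DPPA4 at 82.1% ± 1.51 just inside the high one. The values of the 5 highest promoters moved little with other settings, from 92.6% to 95.9% for SYCP3, STK31 and HORMAD1 and from 90.6% to 93.7% for TDRD9 and MSH4. Of the 5 lowest, SYCE2, RAD21L1 and SYCE3 stayed under 10.6%, DPPA3 ranged from 10.1% to 15.0%, and MOV10L1 from 18.3% to 32.7%.

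A mean over a promoter can hide a boundary. For 43 germline promoters with at least 10 CpGs, the position that best split the control levels into a left and a right side along the hg19 coordinates, each with at least 5 CpGs, was found. The sides differed by at least 50 points in 12 of the 43 (27.9%), against 31.8% of 18745 autosomal promoters. Among promoters of intermediate level they did so in 9 of 24 germline genes (37.5%), against 52.5% of 6865, so such boundaries were not more common than elsewhere. Some of the 12 join CpGs that lie far apart, as described below. In MOV10L1 the sides lay 56099 bases apart. A side of TEX15 took in 4 CpGs of a distant intronic cluster, and a side of MAEL 3 CpGs within the neighbouring gene ILDR2. All 12 also differed by at least 50 points in the Mdivi-1 library, whose values did not choose the split. Of all autosomal promoters, 5966 reached 50 points by control values and 5732 by Mdivi-1 values. Close counts for both libraries were therefore not particular to germline genes. The sharpest of the 12 germline promoters was that of REC8. There, 5 CpGs between REC8 and IRF9 were at 94.4% and 22 CpGs at the start at 1.70%, with 1201 unmeasured bases between them. In the Mdivi-1 library the same sides were at 96.0% and 0.988%.

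In DMC1 the split fell between CpGs 17 bases apart, with a mean of 92.7% over 17 CpGs and 7.29% over 32 CpGs. In the Mdivi-1 library these sides were at 90.4% and 7.82%. The lower side was not uniform. In the control it held a CpG at 46.2% next to the split and CpGs at 72.7% and 50% at its far end. SPATA22 had an island at 89.0% over 27 CpGs beside 8 CpGs at 20.4%, and in the Mdivi-1 library these were at 87.1% and 22.1%. ASZ1 had an island at 84.5% over 15 CpGs beside 20 CpGs at 19.9%, and in the Mdivi-1 library these were at 92.0% and 20.8%. SMC1B had 36 island CpGs at 85.6% beside 12 CpGs at 28.0%, of which 58.3% were island CpGs too. Over the 12 genes, MOV10L1, TEX15 and MAEL included, the methylated side held the larger share of island CpGs in 6. It held the smaller share in 3, REC8, SYCE3 and SPO11, and 3 had no island CpG on either side. SYCE3 had 38 CpGs at 2.20%, some of them in an island, and 5 intergenic CpGs at 68.0%.

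**Figure D3:**
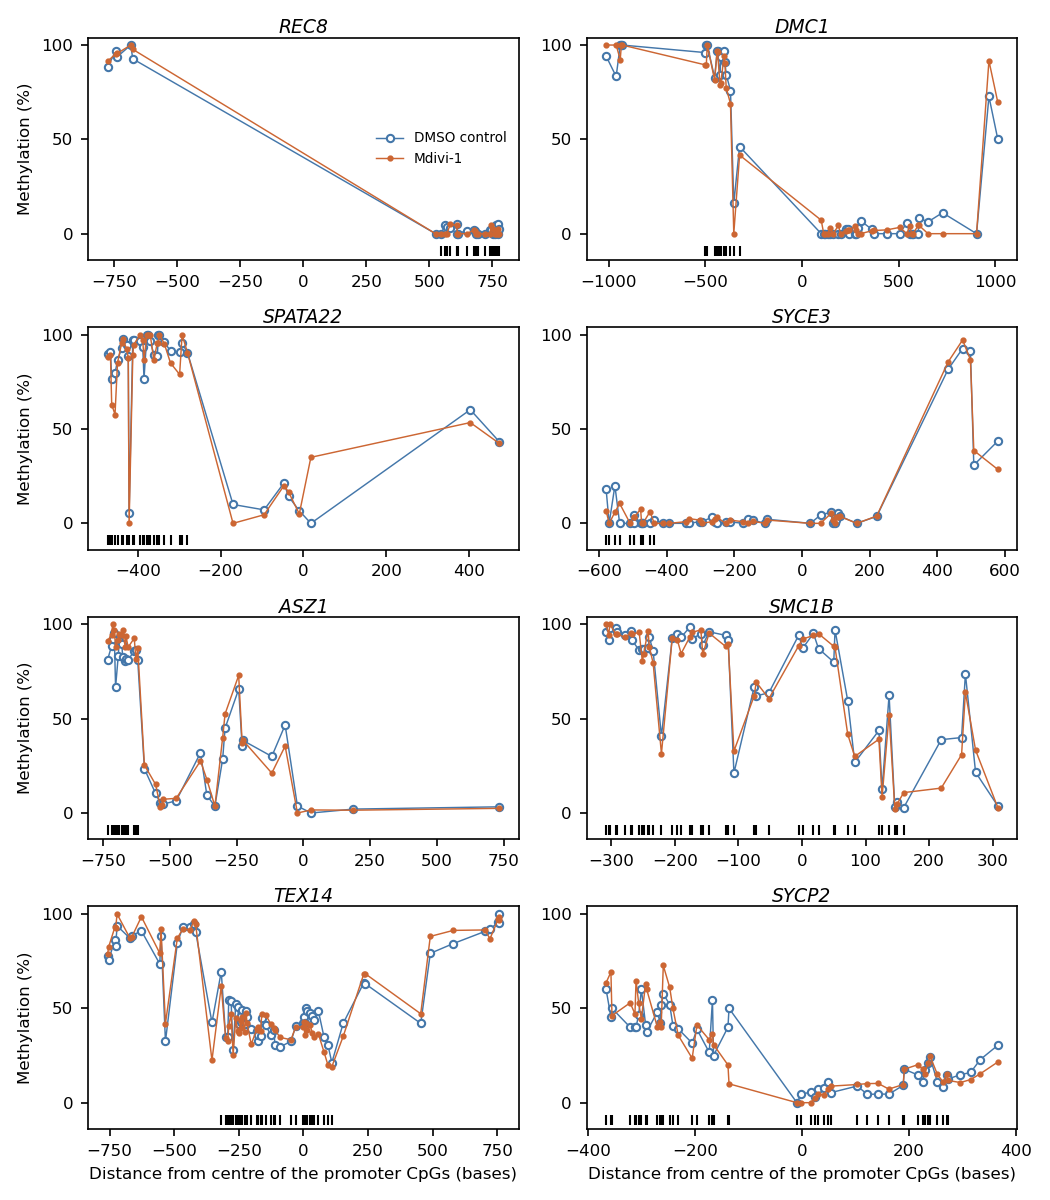
Methylation of single promoter CpGs (vertical axis, percent) against distance from the centre of the measured promoter CpGs in bases (horizontal axis) for 8 germline genes, in the DMSO control (open blue) and the Mdivi-1 library (filled orange). Black ticks mark CpGs in an island, and lines join measured CpGs across unmeasured gaps. REC8, DMC1, SPATA22, SYCE3, ASZ1 and SMC1B show sides that differ by more than 50 points in both libraries, while TEX14 and SYCP2 show broad intermediate stretches.

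Intermediate CpGs, those from 20% to under 80%, were common in germline promoters. The median promoter had 25.0% of its CpGs in this range, against 8.33% over all. TEX14, whose promoter lies on that of the neighbouring recombination gene RAD51C, had 73.5% of its 68 CpGs there. TDRD5 had 73.9%, TDRD6 63.9%, POU5F1 60.0% and TEX101 59.1%. SYCP2 had 54.9%, in a stretch of 24 island CpGs at 44.2% followed by 27 CpGs at 11.6%.

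Some mean levels combine starts that lie far apart. MOV10L1 had 11 CpGs at an upstream start at 64.6% and 42 CpGs at an internal start at 6.51%, with 56099 bases between them. TEX15 had 4 intronic CpGs at 93.2% and 17 CpGs at its outer start at 9.61%. MAEL had 31 CpGs at 66.3% and 3 CpGs within the neighbouring gene ILDR2 at 2.13%. For 16 of the 47 genes, some promoter CpGs were annotated to another gene, alone or together with the germline gene, and for 9 of them every promoter CpG was, such as RIBC2 for SMC1B, FAM217B for SYCP2 and SHE for TDRD10. When only CpGs of no other gene's annotation were used, 33 of the 45 promoters could be measured. The 12 lost were the 9 genes above with SYCE2, DMC1 and PIWIL2, whose remaining CpGs shared their promoter annotation with another gene. The low level of SYCE2 and the sides of DMC1 therefore rest on shared CpGs. Under the other settings the control level of TDRD10 ranged from 34.4% to 62.5%.

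Gene bodies differed less from the rest of the genome than promoters did. Over 43 genes, the median gene body level was 59.6% in control cells and 58.9% after Mdivi-1, against 37.7% and 38.1% over all autosomal gene bodies. The highest were SYCP2 at 96.7% ± 0.54, SYCP3 at 94.6% ± 0.64, MSH4 at 93.4% ± 0.79 and BOLL at 93.3% ± 0.77. The lowest were TEX15 at 5.57% ± 0.29, REC8 at 10.9% ± 0.36 and SPATA22 at 19.1% ± 1.07. Island CpGs made up 83.8% of the body CpGs in TEX15, 81.7% in REC8 and 11.1% in SPATA22, and from 77.4% to 85.7% in the highest bodies named.

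In most genes of the genome the body was more methylated than the promoter, and germline genes departed from this. Among 41 germline genes with both values in the control, the body was higher in 16 (39.0%), against 71.7% of 19254 genes. The median of body minus promoter was −1.76 points, against 12.3. Gene body CpGs could directly adjoin those of the promoter. In ASZ1 the body CpGs reached 117067546 on chromosome 7 in hg19, and the promoter CpGs began at 117067548. Among the 43 gene bodies, the share of island CpGs ran from 0% in CTCFL to 85.7% in MSH4. How far such CpGs shaped the comparison of body and promoter was not tested. Pearson's r between promoter and body was 0.66 across the 41 genes and 0.43 across all, given as a description, since both values of a gene come from the same library.

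The 5 widest gaps ran in both directions. SYCP2 had a promoter at 26.9% and a body at 96.7%, and in the Mdivi-1 library these were at 27.6% and 96.5%. All 51 promoter CpGs of SYCP2 were annotated to FAM217B. Its body CpGs, 78.1% of them in an island, reached 58508407 on chromosome 20 in hg19, and its promoter CpGs began at 58508878. The SYCP2 gap therefore partly compares neighbouring island CpGs. With only exon, intron and untranslated positions in no promoter, its body was at 93.4% over 10 CpGs. SPATA22 had the reverse, at 73.3% and 19.1% in the control and 72.3% and 19.8% in the Mdivi-1 library. DPPA3 had a promoter at 11.2% and a body at 60.3%, although under other settings its body ranged from 15.6% to 61.8%. HORMAD1 was at 94.6% and 59.6%, but its body was at 90.4% over 25 CpGs when only exon, intron and untranslated positions were used, so its gap depended on that choice. SPO11 was at 62.8% and 29.5%. Under other settings the body ranged from 93.4% to 96.7% in SYCP2, from 18.8% to 28.6% in SPATA22 and from 23.02% to 29.5% in SPO11, and the promoter from 17.1% to 26.8% in SYCP2, from 69.7% to 86.2% in SPATA22 and from 61.7% to 64.1% in SPO11. Counting errors of these levels were between 0.50 and 3.37 points, under the gaps as given.

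**Figure D4:**
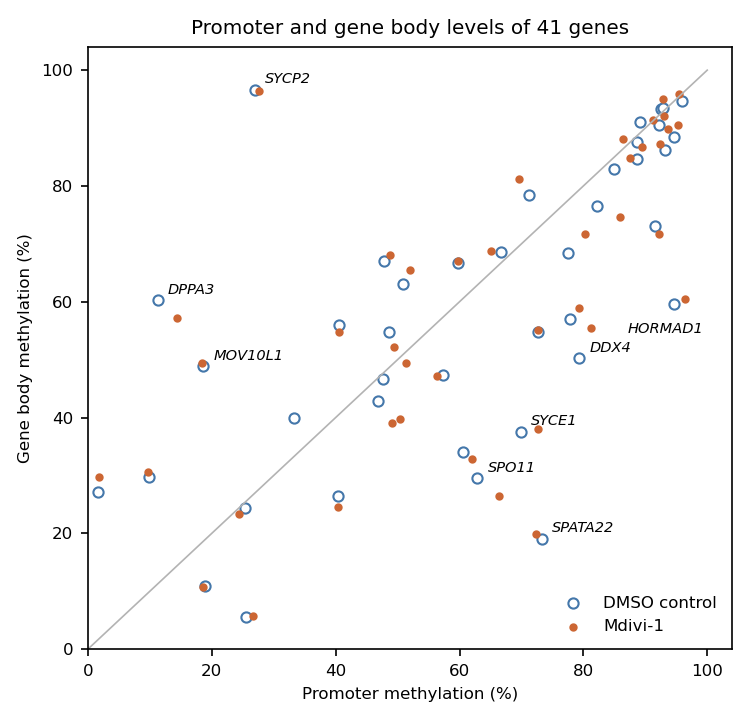
Gene body methylation (vertical axis, percent) against promoter methylation (horizontal axis, percent) of 41 germline and meiosis genes in the DMSO control (open blue) and the Mdivi-1 library (filled orange). The grey line marks equal levels, and the 8 genes with the widest gaps are named. In the control, 16 of the 41 genes lie above the line, SYCP2 farthest, and SPATA22 lies farthest below it.

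Promoter levels in the 2 libraries were close. The difference, Mdivi-1 minus control, had a median of 0.691 points over the 45 germline promoters and 0.198 points over all autosomal promoters. It was above 0 in 29 germline promoters (64.4%), against 58.3% of all, and below 0 in 16, and it reached 2 points in either direction in 15 of them (33.3%), against 21.3% of all. The difference varied with the level. Among intermediate promoters the median was 0.973 points for germline genes and 0.419 for all, among high promoters 0.759 and 0.780, and among low promoters −0.154 and 0.0937. Differences of at least 2 points were found in 32.0% of intermediate germline promoters, against 34.5% of all intermediate ones. The shares were 42.9% and 37.6% among high promoters, and 16.7% and 8.55% among low ones. Low promoters made up 13.3% of the germline promoters and 52.1% of all, so the 33.3% and 21.3% above compare unlike mixes of levels.

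Counting error was computed for 2 extremes, because neighbouring CpGs are read on the same DNA fragments. The smaller error takes the CpGs of a promoter as independent. The larger takes them as all covered by the same reads and all in the same state on each read. A promoter with unlike sides, such as that of REC8, cannot meet this. Differences lay beyond the 95% interval of the smaller error in 6 of 45 germline promoters (13.3%), where 11.6% of all promoters did, and in 4 of 43 germline gene bodies (9.30%), where 16.9% of all gene bodies did. The promoters were those of CTCFL, ASZ1, SPO11, SYCE1, PIWIL2 and PIWIL1, the last with the lower level in the Mdivi-1 library, and the gene bodies those of DDX4, PIWIL2, ASZ1 and SYCE2. No germline promoter or gene body lay beyond the 95% interval of the larger error. None of the others in the genome did either, so this interval did not tell any feature apart.

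**Figure D5:**
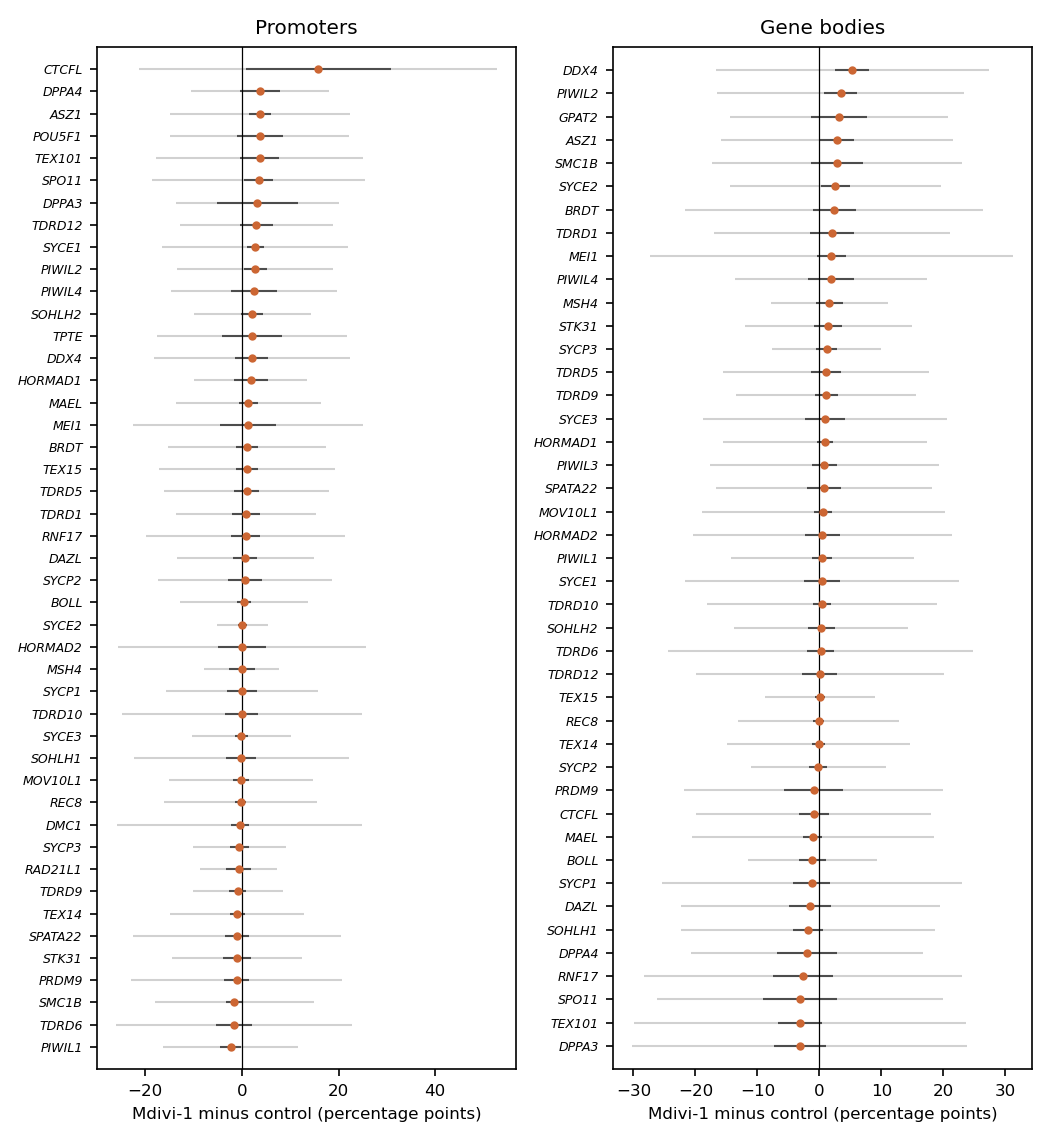
Difference in methylation, Mdivi-1 minus control (horizontal axis, percentage points), for 45 germline promoters (left) and 43 germline gene bodies (right). Dark bars are 95% counting intervals for independent CpGs. Pale bars are those for CpGs that share all reads and have the same state on each read. Every pale bar crosses 0, and CTCFL, at 15.8 points, is the point farthest from 0.

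The 6 promoters of largest difference were those of CTCFL, DPPA4, ASZ1, POU5F1, TEX101 and SPO11, all with the higher level in the Mdivi-1 library. For ASZ1 the difference was 3.69 points, with a smaller error of 1.18 and a larger of 9.49, and 25 of 35 CpGs were higher. For SPO11 it was 3.47 points with errors of 1.53 and 11.2. DPPA4, at 3.73 points with errors of 2.10 and 7.28, POU5F1, at 3.68 with 2.43 and 9.45, and TEX101, at 3.66 with 2.05 and 11.0, did not pass the 95% interval even of the smaller error. Under other settings the difference stayed above 0 in these 5 genes, with the lowest value of 0.66 points for ASZ1.

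Larger differences were counted by a rule of size, which asked for 5 or more CpGs, a mean shift of 10 points or more, and 80% or more of the CpGs moving that way. It was met by 1 germline promoter of 45, that of CTCFL, against 0.243% of all autosomal promoters. No germline gene body met it, against 0.149% of all gene bodies. The CTCFL difference was 15.8 points with errors of 7.66 and 18.9, and rested on 5 intergenic CpGs at chr20:56102521-56102602 in hg19, between CTCFL and PCK1. Their control levels were 76.9%, 30%, 16.7%, 27.3% and 15.4%, from 10 to 13 reads each. In the Mdivi-1 library they were 88.9%, 31.3%, 25.0%, 53.3% and 46.7%, from 15 to 18 reads each. All 5 were higher in the Mdivi-1 library, though none passed a test of its own, with the smallest Fisher exact p at 0.114.

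The 10 other CTCFL promoter CpGs had fewer than 10 control reads. Of these, 8 lay in the 5′ untranslated region, and at 6 of them the Mdivi-1 library was lower, for example 50% in the control against 16.7% at position 56100109, from 8 and 12 reads. With at least 5 reads allowed, the CTCFL promoter was at 58.2% in the control and the difference was −0.57 points. The direction of the CTCFL difference therefore depended on the read minimum.

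The 6 gene bodies of largest difference ran both ways. DDX4 was at 50.2% in control cells and 55.5% after Mdivi-1, a difference of 5.27 points with errors of 1.41 and 11.2, and 28 of its 37 CpGs were higher. PIWIL2 was at 68.4% and 71.8%, with errors of the difference of 1.35 and 10.1 and 24 of 40 CpGs higher. GPAT2, a mitochondrial acyltransferase of the piRNA pathway, was at 49.5% and 52.7%, with errors of 2.28 and 8.95. DPPA3 was at 60.3% and 57.1%, with errors of 2.14 and 13.8. TEX101 was at 42.9% and 39.8%, with errors of 1.82 and 13.7, and SPO11 at 29.5% and 26.4%, with errors of 3.07 and 11.7. Under other settings DDX4 kept a difference from 2.72 to 5.57 points and TEX101 one from −3.51 to −2.42, while the sign of PIWIL2, GPAT2, DPPA3 and SPO11 changed under at least 1 of them. Over the 43 gene bodies the median difference was 0.422 points against 0.394 over all. Promoter and body differences had the same sign in 20 of the 41 genes with both (48.8%), against 53.3% of all genes.

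Fixed windows of 1 kb were searched for local differences. The rule of size was met by 2 of 150 windows of germline genes (1.33%), where 0.877% of 120150 autosomal windows met it. One was the CTCFL stretch above. The other was in DPPA3, over an exon and the intron beside it at chr12:7868009-7868061 in hg19, where all 6 CpGs were lower in the Mdivi-1 library. Its control levels were 87.5%, 93.8%, 93.8%, 100%, 72.2% and 63.2%, and those of the Mdivi-1 library 73.7%, 84.2%, 82.6%, 91.3%, 43.5% and 37.5%. The means were 85.1% and 68.8%, a difference of −16.3 points with errors of 5.15 and 13.7, from 15 to 19 control reads and 19 to 24 Mdivi-1 reads per CpG. With at least 20 reads required, neither window remained.

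Windows just under the rule were those of TDRD10, DDX4, SMC1B and SYCE1. In an intron of DDX4, chr5:55034038-55034541 in hg19, all 11 CpGs were higher in the Mdivi-1 library, at 46.2% in the control and 55.9% after Mdivi-1, a difference of 9.65 points with errors of 3.02 and 12.04. In SYCE1, 18 of 20 CpGs were higher, at 26.7% and 35.7%. TDRD10 had 5 of 5 CpGs higher, at 46.9% and 56.7%, whereas SMC1B had 4 of 8 higher, at 58.5% and 67.8%. Shelf CpGs of germline promoters were 7.97 points higher in the Mdivi-1 library over 37 CpGs, of which 27 were in SYCE1, with 33.9% in the control and 41.3% after Mdivi-1, and 5 in CTCFL.

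Single CpGs gave no call. Of 3769 positions of the 47 genes, 3415 passed the read minimum, 1517 in promoters and 1898 in gene bodies, with medians of 33 control and 40 Mdivi-1 reads. A two-sided Fisher exact test on methylated and unmethylated reads, with Benjamini-Hochberg adjustment over all CpGs of the genome, called 0 of them at an adjusted p under 0.05 and a difference of at least 20 points, where 0.000634% of all CpGs were called. At an unadjusted p under 0.05 there were 68 (1.99%), against 2.02% of all. Differences of at least 20 points were found at 96 (2.81%), against 2.63% of all. Pearson's r between the libraries was 0.98 over the 3415 CpGs, a description of positions that share libraries and reads.

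The 5 CpGs of smallest p were all lower in the Mdivi-1 library, and each had an adjusted p of 1 by Fisher's exact test with Benjamini-Hochberg adjustment. In an exon of RNF17, position 25338359 of chromosome 13 had 17 of 36 reads methylated in the control and 7 of 43 in the Mdivi-1 library (Fisher exact p = 0.00358). The nearby position 25338391 had 9 of 21 and 2 of 30 (Fisher exact p = 0.00406). At 45810012 on chromosome 22, in the SMC1B promoter within an intron of RIBC2, the reads were 21 of 54 and 7 of 53 (Fisher exact p = 0.00383). PRDM9 had 7 of 72 and 0 of 80 at 23507127 on chromosome 5 (Fisher exact p = 0.00456), and DAZL 53 of 56 and 47 of 62 at 16647660 on chromosome 3 (Fisher exact p = 0.00477).

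Other genes of the same pathways, listed apart from the 47, also had promoters in every class. Of 49 listed genes, 47 matched the deposited annotation and 46 promoters had at least 5 CpGs. In the control 15 were low (32.6%), 18 intermediate and 13 high (28.3%), with a median of 46.5%, and 29 were higher and 17 lower in the Mdivi-1 library, with a median difference of 0.502 points. None met the rule of size. PRDM14, a regulator of early germ cells, had the largest difference, at 40.04% in control cells and 48.6% after Mdivi-1, 8.53 points with errors of 1.42 and 13.3. ZFP42 (REX1), a pluripotency marker, was at 89.8% and 95%, and REC114, a partner in break formation, at 45.5% and 49.7%.

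Factors known to silence germline genes were also looked at by promoter level. Of 10 listed, 9 were measured, with a median of 28.5% in the control, 4 low and 5 intermediate. SETDB1, MAX, PCGF6 and L3MBTL2 lay under 6% in the control, E2F6 was at 57.1% and 58.0% in the 2 libraries, MGA at 55.0% and 56.0%, and the methyltransferase DNMT3B at 73.2% and 78.4%. Island CpGs made up from 78.9% to 94.1% of the measured CpGs in the 4 low promoters, 31.25% in MGA and 0% in E2F6 and DNMT3B, so these levels compare unlike parts of promoters. None of the 9 met the rule of size.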

How the data were processed

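SH-SY5Y genomic DNA was bisulfite converted after methyl capture with the SureSelectXT Methyl-Seq kit and sequenced on a NovaSeq instrument, per the labels' protocols. The submitters' processing notes name BSMAP, without a version, and hg19. For 2773807 positions the authors deposited a methylated fraction and a coverage per library, with gene, promoter and island annotation. Some deposited coverages are not whole, so they are treated as estimated counts. The deposited difference of the fractions, an other kind of value, was not used. Bisulfite does not separate 5-methylcytosine from 5-hydroxymethylcytosine.

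As deposited, 33.3% of control fractions correspond to whole reads (tolerance 1e-06). They do so after multiplying coverage by 1.23, which is the median coverage of the treated library (37 reads) over that of the control (30 reads), with the ratio of methylated reads kept to 3 decimals, a step read from the values and not given in the sources used here. Methylated reads were recovered on this basis. In all, 10760 positions (0.388%) were left out, 10751 for fractional coverage and 9 without a single solution.

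CpGs read 10 times or more in each library were kept, and intervals cover counting error only, at 95%. Tools were SciPy 1.17.1, pandas 2.3.3, NumPy 2.4.6 and Numba 0.67.0 under Python 3.11.15, and the computation was tested on simulated data. The genes, lists, tests and alternatives were chosen with earlier results of these data known. Every gene could be named by level. Errors and other settings were given for the 6 promoters and 6 gene bodies of largest difference, the 5 highest and 5 lowest promoters, the 5 widest gaps between promoter and body, features that met the rule of size and the 5 CpGs of smallest p, and 3 related genes were named by size of difference. Genes named beyond this rule as passing a counting interval or a boundary were chosen after their values were seen. The RNA-seq that the series' design mentions was not used here.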

Additional observations from a re-analysis of the deposited data

How the results depend on the processing

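The median promoter level of 62.8% in the control became 66.3% with at least 20 reads, 65.3% with reads pooled, 66.6% with at least 10 CpGs per promoter and 66.3% with CpGs annotated to no other gene. The median gene body level of 59.6% became 55.2% with at least 20 reads, 57.0% without the most deeply covered CpGs, 55.6% with reads pooled, 57.0% with at least 1 CpG and 55.8% with exon, intron and untranslated positions in no promoter. The 1 promoter that met the rule of size became 0 with at least 20 reads, 0 with at least 5 reads, 0 at 20 points and 0 without CTCFL, the last an alternative added after seeing the data. The 2 windows became 0 with at least 20 reads, 4 with at least 5 reads, 11 at 5 points, 0 at 20 points and 5 with windows of 500 bases. The cause of these shifts was not tested, apart from CTCFL, whose control coverage of 10 to 13 reads removes it at 20 reads. Of 71 recomputed values, 53 stayed within counting error or within 1.5 times the count, the median differences and the 0 called CpGs among them. For the median differences this could not show stability. The error allowed was 2.64 points for promoters and 2.43 points for gene bodies, while the medians themselves were 0.691 and 0.422 points. A median of 0 would also have stayed within it. No paired analysis was possible because each group is 1 library, and no replicate could be left out.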

Other observations

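Single CpGs with few or no methylated reads stood inside methylated stretches in 2 of the genes. In SOHLH2, position 36788530 of chromosome 13 in hg19 had 0 of 36 reads methylated in control cells and 0 of 31 after Mdivi-1, and position 36789821 had 0 of 30 and 0 of 56. In SPATA22, position 3375096 of chromosome 17 had 2 of 36 and 0 of 36. At each of these 3 positions, the 2 measured CpGs on either side were at 80% or more in both libraries. Whether the sequence of these cells holds a CpG at the 3 positions was not tested, and no share over all CpGs is given. In DDX4 and TDRD5, a single CpG at an internal start lay far under the main promoter: in DDX4 it was at 11.5% in control cells and 13.3% after Mdivi-1 beside 81.8% and 83.8% over 27 CpGs, and in TDRD5 at 3.33% and 2.38% beside 48.8% and 49.8% over 45 CpGs.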
